A study of Homo sapiens with 28 samples.

Results

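The 8 genes examined here encode glycosyltransferases of the globo-series glycolipids, the lipids that carry the surface antigens SSEA3 and SSEA4. They were chosen by name: UGCG, B4GALT5, B4GALT6, A4GALT, B3GALNT1, B3GALT5, ST3GAL2 and GBGT1. GBGT1 acts on a branch that leads to neither antigen. On Affymetrix Human Exon 1.0 ST arrays, 7 of the 8 had a gene-level transcript cluster of their own, among 14232 distinct genes so represented and 22011 clusters in all. The cluster of GBGT1 also carries the symbol RALGDS, so GBGT1 was read from the mean of its 10 probesets. Together the 8 genes had 91 of 287329 exon-level probesets, which are groups of probes within one exonic stretch.

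Human embryonic stem (ES) cell lines, derived from embryos, were compared with embryonal carcinoma (EC) cell lines, derived from germ cell tumours. The 6 ES lines (H9, H14, Shef3, Shef5, Shef6 and Shef7) grew on feeders, which are mouse embryo fibroblasts inactivated with mitomycin C, and their medium was knock-out DMEM supplemented with Serum Replacement at 10% and FGF at 4 ng/ml. The 5 EC lines (2102Ep, 833KE, NCCIT, NTERA2 and TERA1) grew on plastic, where the medium was high-glucose DMEM supplemented with FCS at 10%. Of these, NTERA2, 2102Ep and 833KE were also profiled after growth on feeders under the ES conditions. Per the labels, every culture was sorted by flow cytometry for SSEA3 before RNA was taken, so each sample had been selected for a product of the enzymes measured here. Each line was on 1 array per growth condition, so n counts cell lines and their number limits the precision. Between EC lines on plastic and ES lines, cell type and growth condition differ together and cannot be told apart.

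Globo-series lipids are made in the Golgi apparatus by adding sugars one after another to ceramide. UGCG adds glucose, B4GALT5 and B4GALT6 add galactose to give lactosylceramide, A4GALT adds the galactose that commits the lipid to the globo-series, and B3GALNT1 adds N-acetylgalactosamine to give globoside. B3GALT5 then adds the galactose that forms the SSEA3 antigen, ST3GAL2 caps it with sialic acid to form SSEA4, and GBGT1 instead extends globoside to the Forssman antigen. SSEA3 and SSEA4 are standard surface markers of undifferentiated human ES and EC cells.

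A4GALT and UGCG were the members with probesets that passed the test in any comparison, and the 250 bases before an annotated start of each are shown for reference, from RefSeq on GRCh38.p14. Promoter windows were found for 6 of the 8 members, as 10 windows in all, of which A4GALT had a pair. Capitals mark the GC box, GGGCGG on either strand. The A4GALT window is chr22:42720871-42721120 on the minus strand and the UGCG window is chr9:111896564-111896813 on the plus strand.
A4GALT: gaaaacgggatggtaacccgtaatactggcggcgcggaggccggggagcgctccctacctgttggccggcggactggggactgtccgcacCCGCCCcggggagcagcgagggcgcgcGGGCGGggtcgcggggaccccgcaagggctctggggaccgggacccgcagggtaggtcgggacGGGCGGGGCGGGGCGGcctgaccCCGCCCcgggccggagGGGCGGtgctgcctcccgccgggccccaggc
UGCG: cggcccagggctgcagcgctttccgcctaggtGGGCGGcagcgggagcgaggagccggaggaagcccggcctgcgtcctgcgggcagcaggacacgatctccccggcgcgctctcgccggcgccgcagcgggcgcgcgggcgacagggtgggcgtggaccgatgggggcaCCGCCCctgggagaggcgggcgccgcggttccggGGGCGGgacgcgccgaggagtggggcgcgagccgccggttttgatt
The A4GALT window holds 7 GC box matches, overlapping ones included, and the UGCG window holds 3. Neither contains CCAAT or TATAAA on either strand. The other A4GALT window, chr22:42721302-42721551, holds 1 GC box and 3 CCAAT matches and is not printed; the one shown is the first listed, and which start these cells use was not measured. Among 35116 windows of the same length, 42.6% hold a GC box, 32.0% hold CCAAT and 10.7% hold TATAAA. The arrays did not measure promoters, so these letters describe the loci only.

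The arrays resembled one another, with correlations between arrays of 0.93 to 0.98 and gene-level medians of 6.19 to 6.39 on the log2 scale. The labels give each array a code, up to 13 for 4 arrays (H14, Shef5 and the feeder cultures of NTERA2 and 2102Ep) and from 17 for the others, including every EC array on plastic. What the code stands for is not stated in the labels. The mean of 10 measured pluripotency markers lay between 9.76 and 10.7 in ES lines, 10.1 and 11.2 in EC lines on plastic, and 10.4 and 10.8 in EC lines on feeders. ZFP42 was at 3.41 in Shef3 and 4.22 in NTERA2 on plastic, below the array medians, and between 7.81 and 11.3 elsewhere, and the other 9 markers were at or above 7.81 in every array. POU5F1, NANOG, SOX2 and TDGF1 had no cluster of their own. The group means of single probesets were 9.24 to 11.6 for SOX2, 8.62 to 12.3 for NANOG and 3.20 to 9.58 for POU5F1. Of the fibroblast markers, LUM, DCN, POSTN and FAP were at or below 4.48 in every array, while COL1A1, COL1A2, COL6A1 and THY1 reached 9.22, 9.02, 9.46 and 10.8. Over all 12 fibroblast markers, of which THY1 is also a pluripotency marker, the summed linear signal was 1256 to 2853 in ES lines, 687 to 2459 in EC lines on plastic and 1937 to 2720 in EC lines on feeders, and its part in the results below was not tested. In RNA pooled from many sorted cells, fewer cells of a type and less RNA per cell cannot be told apart.

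**Figure D1:**
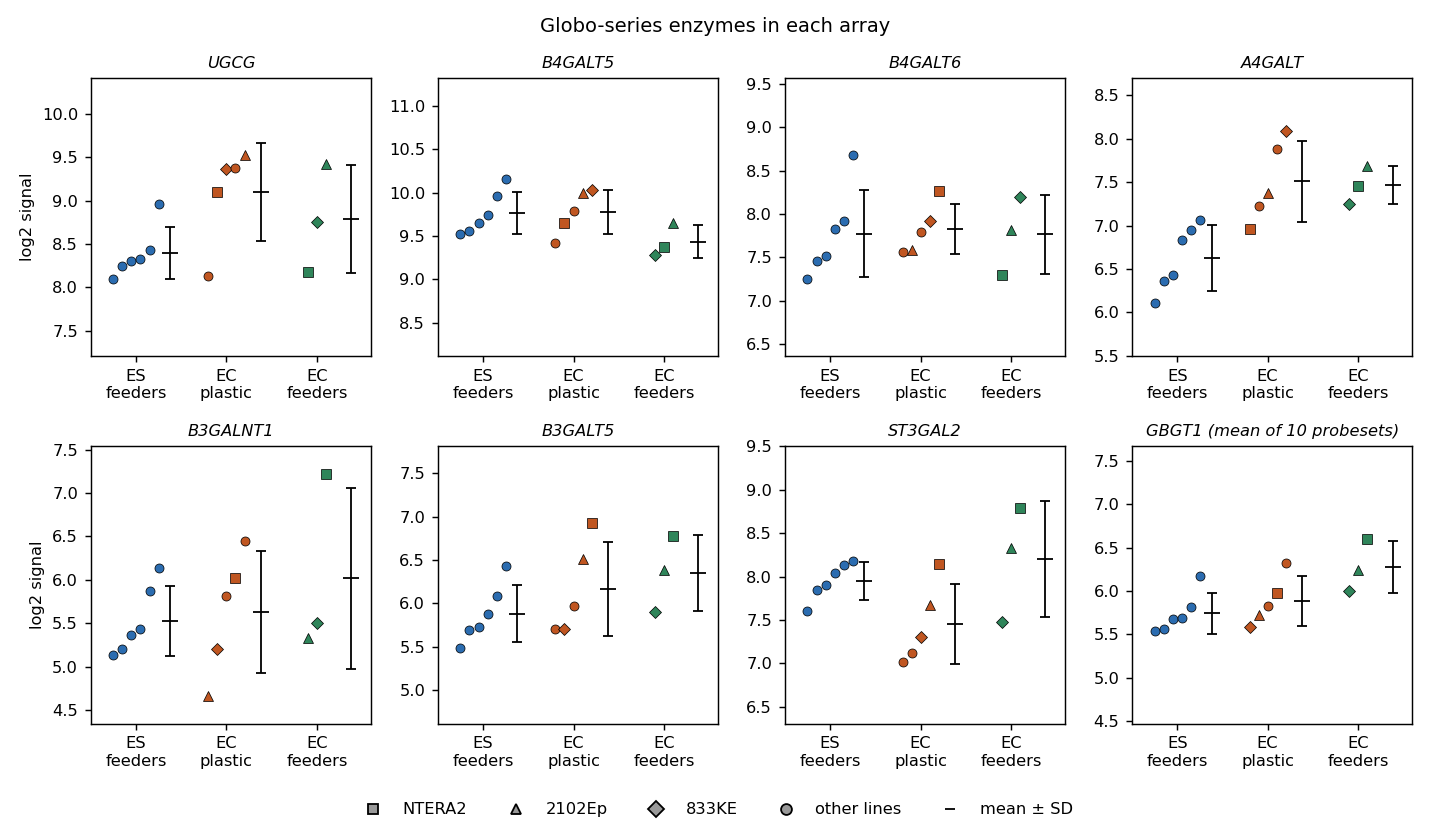
Log2 signal of the 8 enzymes in each of 14 arrays, with ES lines in blue, EC lines on plastic in orange and EC lines on feeders in green; bars give the mean ± SD and every panel spans the same 3.2 log2 units. The A4GALT panel separates ES lines (6.10 to 7.06) from EC lines on feeders (7.25 to 7.69), and B3GALNT1 shows the widest spread.

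UGCG opens the pathway. Its log2 level in ES lines ranged from 8.10 in Shef6 to 8.96 in H9, with a median of 8.31. On plastic the EC lines gave 8.13 in NCCIT, 9.10 in NTERA2, 9.36 in 833KE, 9.38 in TERA1 and 9.52 in 2102Ep. Thus 4 of 5 EC lines lay above every ES line, and NCCIT lay among the lowest arrays. On feeders the levels were 8.18 in NTERA2, 8.76 in 833KE and 9.42 in 2102Ep, so the EC groups and the ES group overlapped.

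B4GALT5, one of the lactosylceramide synthases, varied least of all members. Its level ran from 9.28 in 833KE on feeders to 10.2 in H9, a range of 0.87 log2 units over 14 arrays. ES lines averaged 9.77 ± 0.25 (SD, n = 6), EC lines on plastic 9.78 ± 0.25 (SD, n = 5) and EC lines on feeders 9.43 ± 0.19 (SD, n = 3). All groups overlapped, and B4GALT5 stood between the 90.0th and 94.2nd percentile of clusters in every array, a description of brightness and not of transcript number.

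B4GALT6, the other lactosylceramide synthase, averaged 7.77 ± 0.51 (SD, n = 6) in ES lines, 7.82 ± 0.29 (SD, n = 5) in EC lines on plastic and 7.76 ± 0.45 (SD, n = 3) on feeders. Its highest level was 8.67 in H9 and its lowest 7.25 in Shef7, both ES lines, so the ES lines spanned the whole range of the EC lines.

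A4GALT, which makes the first globo-series lipid, was 7.06 in H14, 6.95 in Shef5, 6.84 in Shef7, 6.43 in H9, 6.36 in Shef6 and 6.10 in Shef3. On plastic it was 6.96 in NTERA2, 7.23 in NCCIT, 7.38 in 2102Ep, 7.89 in TERA1 and 8.09 in 833KE. On feeders it was 7.25 in 833KE, 7.45 in NTERA2 and 7.69 in 2102Ep. Among all EC arrays, NTERA2 on plastic was the one that lay below the highest ES line, and the range over 14 arrays was 1.99 log2 units.

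Among the enzymes of the later steps, B3GALNT1, the globoside synthase, differed most between lines. It ranged from 5.13 in Shef5 to 6.14 in H9 among ES lines, with a median of 5.40. The EC lines on plastic were both lower and higher: 4.66 in 2102Ep, 5.20 in 833KE, 5.81 in TERA1, 6.02 in NTERA2 and 6.45 in NCCIT. NTERA2 on feeders had the highest level of all, 7.22, against 5.32 in 2102Ep and 5.51 in 833KE. The distance from lowest to highest array was 2.56 log2 units, or 5.90-fold. B3GALNT1 was dim, between the 26.2nd and 63.6th percentile of clusters across arrays. Its lowest level, 4.66, was close to the 25th percentile of the arrays (4.51 to 4.59).

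B3GALT5, which forms the SSEA3 antigen, was highest in NTERA2, at 6.93 on plastic and 6.77 on feeders. 2102Ep followed among EC lines, with 6.51 and 6.39. The remaining EC arrays lay between 5.70 and 5.97, within the ES range of 5.49 in Shef7 to 6.43 in H9. Across arrays B3GALT5 stood between the 37.3rd and 59.7th percentile of clusters. H9 was the highest ES line for UGCG, B4GALT5, B4GALT6, B3GALNT1 and B3GALT5.

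ST3GAL2, the sialyltransferase that makes SSEA4, lay between 7.60 in Shef7 and 8.17 in H14 among ES lines, with a median of 7.97. On plastic it was 7.02 in TERA1, 7.11 in NCCIT, 7.31 in 833KE, 7.68 in 2102Ep and 8.15 in NTERA2. Here 3 of 5 EC lines lay below every ES line and 2 within the ES range. On feeders it was 7.47 in 833KE, 8.33 in 2102Ep and 8.79 in NTERA2, so these 3 lines fell on both sides of the ES group.

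GBGT1, the Forssman synthase gene, averaged 5.74 ± 0.23 (SD, n = 6) in ES lines, 5.89 ± 0.29 (SD, n = 5) in EC lines on plastic and 6.28 ± 0.30 (SD, n = 3) on feeders, again as a mean of probesets. Shef5, at 6.17, was the highest ES line and lay above 833KE on feeders, at 6.00. The order of the 3 group means differed among members. Neighbouring groups in that order overlapped for every member except A4GALT, where ES lines and EC lines on feeders did not.

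EC lines on plastic were compared with ES lines, a contrast that the labels state. A4GALT was 7.51 ± 0.47 (SD, n = 5) against 6.62 ± 0.38 (SD, n = 6), a difference of 0.89 (SE 0.24) or 1.85-fold, with an adjusted p of 0.0569 by limma with Benjamini-Hochberg adjustment over all clusters. At the threshold of 0.05, 0 of 7 members passed, where 1012 of 22011 clusters did (4.6%). At an unadjusted p under 0.05, A4GALT (0.0029), UGCG (0.0144) and ST3GAL2 (0.0315) passed, beside 19.2% of clusters. With the array code as a block, A4GALT differed by 1.08 with an adjusted p of 0.0349, and within the later codes alone by 1.08 with an adjusted p of 0.0589. All EC arrays on plastic have later codes, so both fits take this difference from the later arrays alone. In both, the difference leaves aside H14 and Shef5, the highest ES lines for A4GALT (7.06 and 6.95).

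UGCG was 9.10 ± 0.56 (SD, n = 5) against 8.39 ± 0.30 (SD, n = 6), higher by 0.70 (SE 0.25) or 1.63-fold, with an adjusted p of 0.135 by limma. With 1 array left out, the adjusted p by limma ran from 0.0107 to 0.272. It passed only without NCCIT, where the difference was 0.95. ST3GAL2 was 7.45 ± 0.46 (SD, n = 5) against 7.95 ± 0.22 (SD, n = 6), a difference of -0.50 (SE 0.20) or 1.41-fold lower, with an adjusted p of 0.204 by limma. Without NTERA2 the difference was -0.67 with an adjusted p of 0.0432, and A4GALT without NTERA2 differed by 1.02 with an adjusted p of 0.0307. No other fit that left out 1 array passed for either gene, with limma adjusted p up to 0.357 for ST3GAL2 and 0.125 for A4GALT.

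The other members differed little between these groups. The difference was 0.28 for B3GALT5 (95% interval -0.25 to 0.82), 0.10 for B3GALNT1 (-0.56 to 0.77), 0.050 for B4GALT6 (-0.47 to 0.57) and 0.012 for B4GALT5 (-0.33 to 0.36), with adjusted p from 0.595 to 0.981 by limma. GBGT1 differed by 0.14 with an adjusted p of 0.648 in the limma fit of probeset means, where 8.28% of genes passed. The intervals for B3GALNT1 and B3GALT5 still include differences of more than 0.7 log2 units. The direction of the B4GALT5 and B4GALT6 differences turned under quantile normalization. The median difference of the 7 clusters was 0.10, against 0.0046 over all clusters.

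Grown on feeders like the ES lines, the 3 EC lines again showed A4GALT above them. The level was 7.46 ± 0.22 (SD, n = 3) against the same 6.62 ± 0.38 (SD, n = 6), a difference of 0.84 (SE 0.23) or 1.79-fold, with an adjusted p of 0.0921 by limma. All 3 EC arrays lay above all 6 ES arrays, which 5.78% of clusters also did. In this comparison 0 of 7 members passed, beside 504 of 22011 clusters (2.29%). At an unadjusted p under 0.05, A4GALT alone passed (0.0044), beside 17.6% of clusters. From the mean of its 6 probesets, A4GALT differed by 0.83 with an adjusted p of 0.04997, just under the threshold, where 4.79% of genes passed in that fit. The same measure on plastic gave 0.77 for A4GALT (limma adjusted p 0.0540) and 0.70 for UGCG (0.0696), neither past the threshold.

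UGCG, higher by 0.70 on plastic, was 0.39 higher on feeders (95% interval -0.21 to 0.99). B3GALNT1 differed by 0.49 (-0.39 to 1.38), B3GALT5 by 0.47 (-0.07 to 1.01), ST3GAL2 by 0.25 (-0.33 to 0.83), B4GALT6 by -0.0088 (-0.70 to 0.68) and B4GALT5 by -0.33 (-0.73 to 0.07), with adjusted p from 0.352 to 0.993 by limma. GBGT1 differed by 0.54 with an adjusted p of 0.135 in the limma fit of probeset means. ST3GAL2 was thus below ES lines on plastic (-0.50) and above them on feeders (0.25), with neither difference past the threshold. Both comparisons use the same ES arrays but different sets of EC lines, 5 on plastic and 3 on feeders. TERA1 and NCCIT, profiled on plastic only, had the lowest ST3GAL2 levels there (7.02 and 7.11). For UGCG, NCCIT was the lowest EC line on plastic (8.13) and TERA1 was at 9.38. The change between conditions within the same lines is given further below. Within the later codes, where 833KE is the single EC array on feeders, the differences of B3GALNT1, B3GALT5 and ST3GAL2 turned to -0.20, -0.033 and -0.40. The median of the 7 clusters was 0.39, against 0.042 over all clusters.

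**Figure D2:**
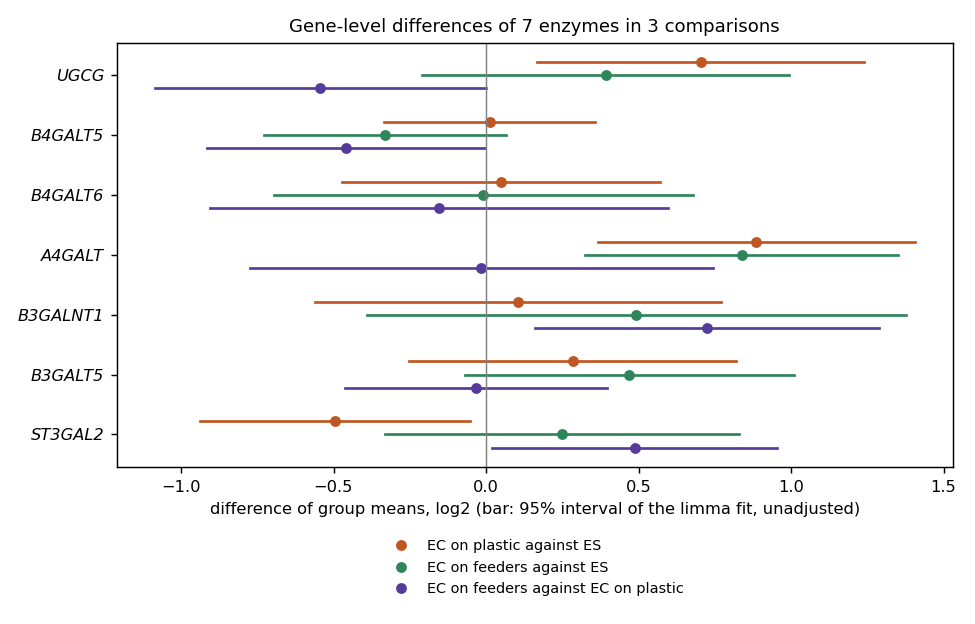
Differences of group means in log2 units for 7 enzymes in 3 comparisons, with 95% intervals of the limma fit that are not adjusted for the number of clusters. A4GALT lies at 0.89 and 0.84 in the comparisons with ES lines and at -0.016 between growth conditions, while UGCG and ST3GAL2 lie on opposite sides of 0 in the comparison on plastic.

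The exon-level probesets were compared between the same groups. Probesets of 1 gene were read from the same arrays, so counts of probesets in 1 direction are not independent of the gene-level difference. All 6 A4GALT probesets were higher in EC lines on plastic than in ES lines, by 0.10 to 1.47. Probeset 3962582 was 6.29 to 7.09 in ES lines, and 7.54 in NTERA2, 7.75 in NCCIT, 7.94 in 2102Ep, 8.48 in TERA1 and 8.76 in 833KE. The groups did not overlap, as in 2.34% of probesets with EC lines higher, and the difference of 1.47 (SE 0.26) had an adjusted p of 0.0112 by limma over all probesets. It passed with each of the 11 arrays left out in turn (adjusted p 0.00716 to 0.0298) and within the later codes (0.0309).

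A4GALT probeset 3962585 was 7.72 to 8.67 in ES lines and 8.82 to 9.78 in EC lines on plastic, again without overlap. Its difference of 1.04 (SE 0.25) had an adjusted p of 0.0430, and it passed in 1 of 11 fits that left out an array, the one without NTERA2. UGCG probeset 3185079 was 5.73 to 7.58 in ES lines and 7.18 to 8.58 in EC lines on plastic, where NCCIT overlapped with H9. Its difference of 1.30 (SE 0.33) had an adjusted p of 0.0495, and it passed in 2 of 11 such fits, those without NCCIT or without H9. In all, 3 of 91 member probesets passed on plastic, where 2.81% of all probesets did.

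UGCG had 12 of 13 probesets higher in EC lines on plastic, with a median difference of 0.81. ST3GAL2 had 9 of 9 lower, by 0.14 to 0.74, and none passed the test. B4GALT5 was split evenly, 5 higher and 5 lower, and B4GALT6 had 8 higher and 6 lower. B3GALNT1 had 12 of 16 higher, B3GALT5 9 of 13 and GBGT1 6 of 10. Of the 91 probesets, 12 were below the array median in all groups.

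On feeders, A4GALT probeset 3962582 was 7.68 in NTERA2, 7.97 in 2102Ep and 8.18 in 833KE, above every ES line, as were 4.14% of probesets. Its difference of 1.32 (SE 0.27) had an adjusted p of 0.0425 by limma, the single member probeset to pass, where 0.953% of all probesets did. With the array code as a block the adjusted p was 0.0664, and the probeset passed in 2 of 9 fits that left out an array, those without H14 or NTERA2. Probeset 3962581 of A4GALT differed by 1.62 with an adjusted p of 0.0892 and probeset 3962585 by 0.94 with an adjusted p of 0.158. All 10 GBGT1 probesets were higher on feeders than in ES lines, by 0.027 to 1.54, with no adjusted p under 0.222.

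**Figure D3:**
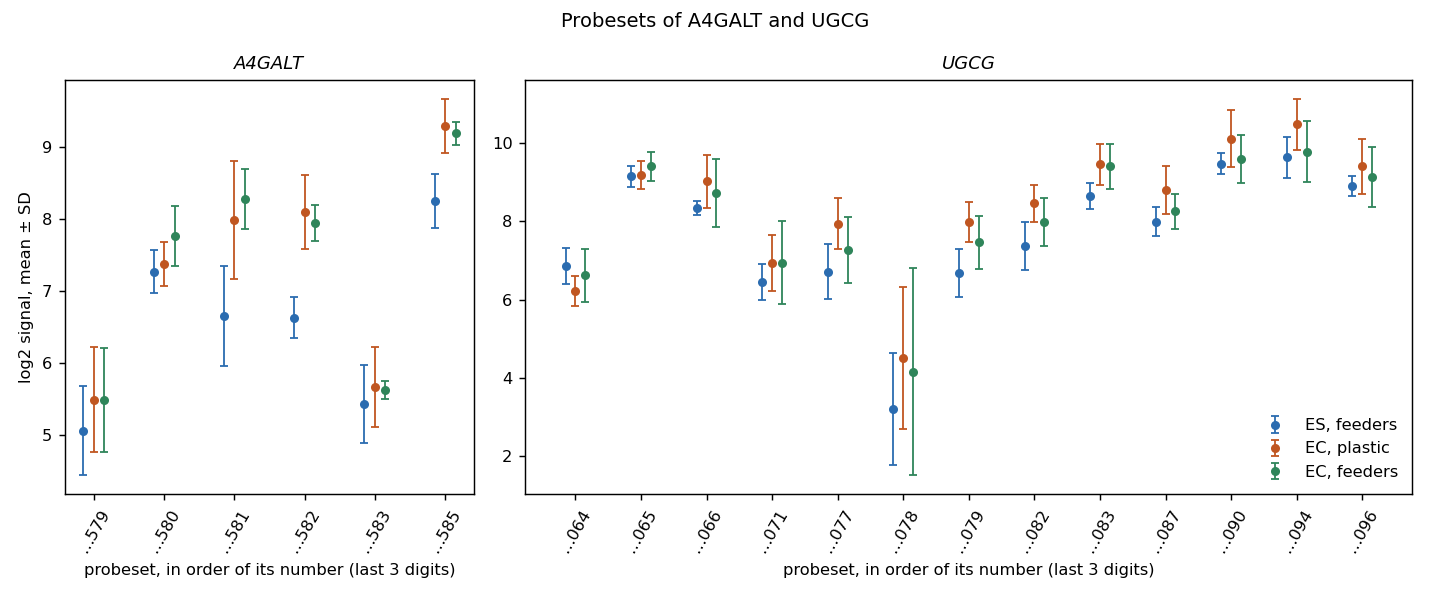
Log2 signal (mean ± SD) of the 6 A4GALT and 13 UGCG probesets in ES lines (blue, n = 6), EC lines on plastic (orange, n = 5) and EC lines on feeders (green, n = 3). A4GALT probeset 3962582 stands at 6.63 in ES lines, 8.09 in EC lines on plastic and 7.94 on feeders, and the first UGCG probeset, 3185064, is the one where ES lines lie above both EC groups.

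One UGCG probeset departed from the rest of its gene. Probeset 3185064 was 6.38 to 7.56 in ES lines, highest in Shef7 and Shef5, and 5.61 in 833KE, 6.06 in NTERA2, 6.39 in 2102Ep, 6.44 in TERA1 and 6.56 in NCCIT on plastic. Its own difference was -0.65 with an adjusted p of 0.239, and the groups overlapped. Relative to the other UGCG probesets, its difference was -1.41 (limma's exon usage test, adjusted p = 0.0140), where 0.438% of probesets passed. This call was lost in 5 of 11 fits that left out an array, those without Shef5, 2102Ep, 833KE, TERA1 or Shef7, and the probeset did not enter the fit limited to probesets above the median in both groups. On feeders the same value was -0.66 and did not pass, beside 0.239% of probesets that did. No other member probeset passed the usage test in either comparison.

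Growth conditions were compared in the 3 EC lines grown both ways, with the cell line as a block. B3GALNT1 was higher on feeders in 3 of 3 lines, by 1.20 in NTERA2, 0.67 in 2102Ep and 0.31 in 833KE. The mean difference was 0.72 (SE 0.22) or 1.65-fold, with an unadjusted p of 0.0209 and an adjusted p of 0.284 by limma. All 16 of its probesets, read from the same arrays and so not independent of this mean, were higher on feeders, by 0.13 to 1.58. Of all 22011 clusters, 0 (0%) passed after adjustment by limma, and 3276 (14.9%) had an unadjusted p under 0.05.

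ST3GAL2 was higher on feeders in 3 of 3 lines, by 0.64, 0.66 and 0.16 in NTERA2, 2102Ep and 833KE, with a mean of 0.49 (SE 0.18, limma adjusted p = 0.324). GBGT1 was also higher in 3 of 3, by 0.62, 0.52 and 0.42, with a mean of 0.52 (SE 0.16, adjusted p = 0.201 in the fit of probeset means, where 0% of genes passed). UGCG was lower in 3 of 3, by -0.92, -0.10 and -0.60, with a mean of -0.54 (SE 0.21, limma adjusted p = 0.336). B4GALT5 was lower in 3 of 3, by -0.27, -0.35 and -0.75, with a mean of -0.46 (SE 0.18, limma adjusted p = 0.335). Agreement in direction among the 3 lines was not compared with its share over all clusters, so it describes these arrays only.

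A4GALT had no common direction, with 0.49 in NTERA2, 0.31 in 2102Ep and -0.84 in 833KE, and a mean of -0.016 (95% interval -0.77 to 0.74). B4GALT6 gave -0.97 in NTERA2, 0.23 in 2102Ep and 0.28 in 833KE, and B3GALT5 gave -0.16, -0.13 and 0.19 in the same order; neither passed the test. In NTERA2 and 2102Ep the feeder array has a code up to 13 and the plastic array one from 17, so growth condition and code cannot be told apart there. Both 833KE arrays have later codes. Among the 3 lines, 833KE had the smallest differences of B3GALNT1, ST3GAL2 and GBGT1, the largest of A4GALT, B4GALT5 and B3GALT5, and intermediate ones of UGCG and B4GALT6, by size without sign. Among the members, the median difference was -0.033, against 0.022 over all clusters. In these lines the fibroblast marker COL6A1 was higher on feeders by 1.06 (adjusted p = 0.237 by limma), and 11 of 12 fibroblast markers had a positive difference. The part of these markers in the members' values was not tested.

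**Figure D4:**
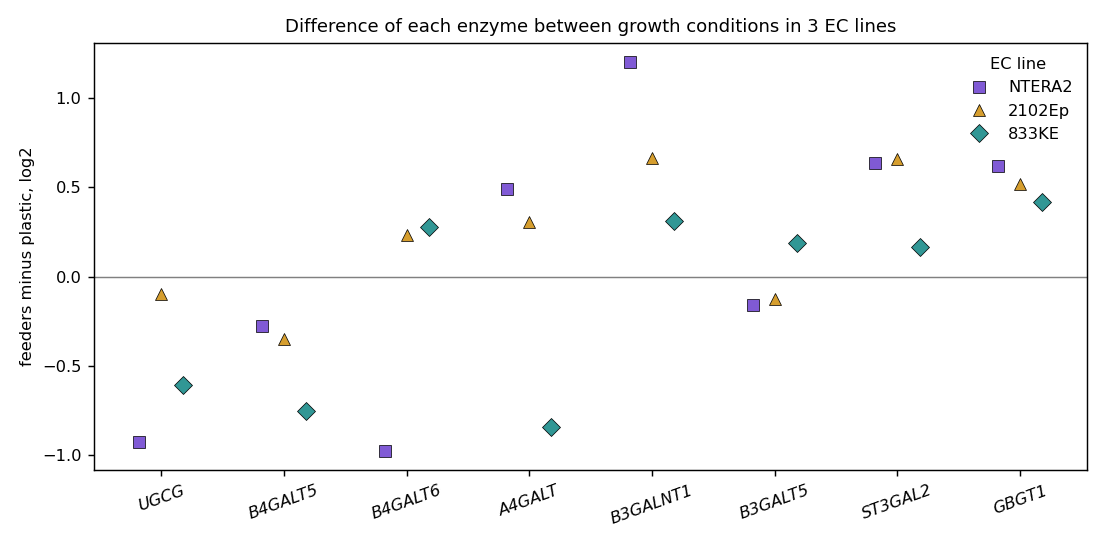
Feeders minus plastic, in log2 units, for each enzyme in NTERA2 (squares), 2102Ep (triangles) and 833KE (diamonds). B3GALNT1, ST3GAL2 and GBGT1 lie above 0 in all 3 lines and UGCG and B4GALT5 below 0, while A4GALT runs from -0.84 in 833KE to 0.49 in NTERA2.

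The members did not vary as one unit over the 6 ES arrays and 5 EC arrays on plastic. Of 21 pairs, the highest Pearson correlations over these 11 arrays were 0.65 for B4GALT6 with B3GALT5 and 0.62 for UGCG with A4GALT, and the lowest was -0.69 for A4GALT with ST3GAL2. After group means were removed, these became 0.67, 0.24 and -0.43, and the highest and lowest were then 0.70 for B3GALT5 with ST3GAL2 and -0.54 for A4GALT with B3GALT5, which had been 0.31 and -0.08. These are descriptions over arrays that share the ES and EC grouping.

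Among 14432 clusters with 1 symbol, those most like A4GALT over the same arrays were RNF19B (r = 0.97), UPP1 (0.94) and TFAP2C (0.94). For UGCG they were C1S (0.96), ZNF101 (0.95) and TMF1 (0.95), and for B4GALT5 they were GNPTAB (0.92), TNP1 (0.89) and ZNF80 (0.89). B4GALT6 was most like GSK3B (0.92), RORA (0.90) and TBC1D22B (0.89). B3GALNT1 was most like GPR180 (0.95), CAST (0.92) and QTMAN (0.91). B3GALT5 was most like KIAA0319L (0.94), ZNF713 (0.93) and NFYB (0.93), and ST3GAL2 was most like XPO6 (0.94), SPG7 (0.94) and PTPRS (0.93). These are the highest values of a search through 14432 clusters over 11 arrays, and whether they exceed those of unrelated genes was not tested.

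Across 7 lists of other glycolipid genes, 4 of 71 measured genes were called in EC lines on plastic against ES lines (5.63%, beside 4.6% of clusters) and 5 of 71 on feeders (7.04%, beside 2.29%). Of 4 measured genes that extend or modify globo-series lipids, ST6GALNAC6, a sialyltransferase that acts on globo-series and other lipids, was called lower in EC lines on plastic, at 7.25 ± 0.51 (SD, n = 5) against 8.07 ± 0.09 (SD, n = 6), a difference of -0.82 with an adjusted p of 0.0412 by limma. This call held in 1 of 11 fits without an array, the one without NTERA2, and not with the array code as a block (adjusted p = 0.0946). On feeders the difference was -0.91, called in each of 9 such fits. Ganglio-series synthesis, which competes for lactosylceramide, had 0 of 8 called in either comparison with ES lines, where the shares of 4.6% and 2.29% give fewer than 1 call in 8 genes. Its genes with the smallest p on plastic were ST6GALNAC4 (-0.44) and ST8SIA5 (0.50), which differed by 0.15 and 0.28 on feeders.

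Of 15 measured genes of lacto- and neolacto-series synthesis, B3GALT1, a galactosyltransferase of the family of B3GALT5, was called lower in EC lines, by -1.98 on plastic and -3.03 on feeders, and in every fit that left out an array. Of 6 measured genes that attach other groups to ceramide, UGT8, which makes galactosylceramide from the substrate UGCG uses, was called lower by -1.47 on plastic and -1.82 on feeders. The UGT8 call was lost in 5 of 11 fits on plastic, those without Shef6, 2102Ep, Shef3, 833KE or TERA1, and in 4 of 9 on feeders, those without 2102Ep, Shef6, Shef3 or 833KE.

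Ceramide synthesis, with 15 measured genes, and glycolipid breakdown, with 9, had none called against ES lines. CERS2, a ceramide synthase, differed by 0.59 on plastic and 0.52 on feeders, and ORMDL1, a regulator of sphingolipid synthesis, by 0.76 and 0.87. GALC, which degrades galactosylceramide, differed by -0.61 and -0.41, and GLA, the lysosomal enzyme that removes the galactose added by A4GALT, by 0.75 and 0.84. Of 14 measured genes of transport and sugar supply, CMAS, which activates sialic acid, was called higher by 1.55 on plastic and 1.95 on feeders. The CMAS call on plastic held in 1 of 11 fits without an array, the one without NCCIT, and not under quantile normalization (adjusted p = 0.0632 by limma), and that on feeders in 9 of 9. GLTP, a glycolipid transfer protein, differed by 0.56 on plastic and was called on feeders, with a difference of 2.01; it was named after its value was seen. Between growth conditions none of these lists had a called gene, and the median differences of the 7 lists on plastic ran from -0.52 to 0.24.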

How the data were processed

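The deposited values are log2 signals summarised by the authors with RMA at gene and exon level (core probesets) in Affymetrix Expression Console, per the submitters' processing notes and the labels; the log2 scale was read from the values. Versions, genome build and annotation release are not given in the sources used here. Symbols came from the platform annotation: 14432 of 22011 clusters carry 1 symbol, 2408 several and 5171 none, and 261273 probesets carry 1. The deposited log2 values were used as they stand, without further normalization, and tested with limma 3.58.1 in R 4.3.3, fitting only the groups compared. A feature was called at a Benjamini-Hochberg adjusted p under 0.05 over all features. Exon usage was tested on probesets above the 25th percentile in at least 1 group, in genes with 3 or more such probesets. Samples were grouped by the labels. ES and EC comparisons treat lines as replicates. The comparison of growth conditions blocks on the cell line, since the labels give the same line name in both; deviations of same-line arrays correlated at 0.34 to 0.51. Labels do not say whether cultures were independent, so p-values measure the spread between these arrays.

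Named genes were all 8 members, up to 4 called genes per glycolipid list on plastic (or the 2 with the smallest p), and the 3 genes of highest correlation with each member. The members, lists and marker sets were chosen with earlier results of these data known. The scripts were tested on simulated data. The alternatives were quantile normalization, median centring, filters on dim features, a spread over all arrays, the array code as a block or restricted to later codes, the EC arrays used, and leaving out each array.

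Further lists gave these counts on plastic against ES lines, where 3.26% of all clusters were called higher and 1.34% lower: pluripotency markers 1 of 10 called higher (CD9), fibroblast markers 3 of 12 lower (COL1A1, COL5A2, COL6A1), neural markers 1 of 8 lower (ZIC2), endoderm markers 4 of 9 lower (CER1, EOMES, GATA6, SOX17) and trophoblast markers 0 of 7. On feeders against ES lines, where 1.56% were called higher and 0.731% lower, CD9 was called higher and 2 of 9 endoderm markers lower (CER1, CXCR4), with none called in the fibroblast, neural and trophoblast lists.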

Additional observations from a re-analysis of the deposited data

How the results depend on the processing

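The call of members at gene level in EC lines on plastic depended on the setting. The count was 1 rather than 0 with dim clusters left out (A4GALT), with the spread of all 14 arrays, which takes the 2 arrays of a line as separate (A4GALT), with the array code as a block (A4GALT), with EC arrays of both growth conditions and the line as a random block, 8 arrays of 5 lines (A4GALT), and with only the 3 EC lines also on feeders (UGCG). It was 0 to 2 with 1 array left out, UGCG without NCCIT and A4GALT and ST3GAL2 without NTERA2. On feeders it was 0 to 0 with 1 array left out. The fit with EC arrays of both growth conditions pools all 8 EC arrays and is the same for both comparisons with ES lines. The A4GALT call it gave is the one listed above for plastic. Clusters called on plastic, 1012 in all, were 527 within the later codes and 587 to 1257 with 1 array left out, more than 1.5 times fewer without H14, Shef6, 2102Ep, Shef3, 833KE or Shef7. Clusters called on feeders, 504 in all, were 306 with the spread of all 14 arrays, 897 with EC arrays of both growth conditions and 167 to 594 with 1 array left out, more than 1.5 times fewer without 2102Ep, Shef6, Shef3 or Shef7. Between growth conditions, clusters called were 29 with dim clusters left out, 12 with the spread of all 14 arrays and 1 with no replicate block, and no member was called in any of these; without the replicate block the adjusted p of B3GALNT1 was 0.771. Probesets called on plastic, 8080 in all, were 4580 with the code as a block, 2456 within the later codes (chosen after seeing the data) and 3699 to 9688 with 1 array left out, more than 1.5 times fewer without H14, Shef5, Shef6, 2102Ep, Shef3, 833KE or Shef7. Those on feeders, 2739 in all, were 802 to 3793, more than 1.5 times fewer without 2102Ep, Shef6, Shef3, H9, Shef7 or 833KE. Member probesets called on plastic were 1 under quantile normalization, 1 within the later codes and 1 to 6 with 1 array left out, the 6 without NCCIT including 5 of UGCG. On feeders they were 0 under quantile normalization, 0 with the code as a block, 0 within the later codes and 0 to 1 with 1 array left out. The count for exon usage was 0 with probesets above the median in both groups, and 0 to 1 with 1 array left out on plastic and on feeders, where the 1 was UGCG probeset 3185078 without 833KE.

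Several differences changed sign, among them those of B3GALNT1 (0.49) and ST3GAL2 (0.25) on feeders against ES lines. On plastic, quantile normalization gave -0.18 for B4GALT5 and -0.076 for B4GALT6. The code as a block and the later codes alone, which take these differences from the same arrays, both gave -0.067 for B4GALT5, -0.095 for B4GALT6 and -0.074 for B3GALNT1. EC arrays of both growth conditions gave -0.12 for B4GALT5, and the 3 EC lines alone gave -0.23 for B3GALNT1. On feeders, the code as a block gave 0.16 for B4GALT6. There the later codes alone gave 0.27 for B4GALT6, -0.20 for B3GALNT1, -0.033 for B3GALT5 and -0.40 for ST3GAL2. EC arrays of both conditions, in the same fit as named for plastic, gave 0.021 for B4GALT6 and -0.26 for ST3GAL2. Between growth conditions, the mean of probesets gave 0.091 for A4GALT and 0.099 for B3GALT5. With 1 array left out, differences on plastic ran from -0.052 to 0.10 for B4GALT5, -0.061 to 0.23 for B4GALT6 and -0.10 to 0.35 for B3GALNT1. On feeders they ran from -0.22 to 0.23 for B4GALT6, -0.11 to 0.84 for B3GALNT1 and -0.045 to 0.61 for ST3GAL2. Between conditions they ran from -0.37 to 0.25 for B4GALT6, -0.27 to 0.40 for A4GALT and -0.14 to 0.031 for B3GALT5. The cause of these changes was not tested. The A4GALT and UGCG differences against ES lines kept their sign under every setting run, and A4GALT probeset 3962582 on plastic was called under every setting run. Quantile normalization split the called clusters into 578 higher and 439 lower on plastic, against 718 and 294, and into 334 and 245 on feeders, against 343 and 161. The number of lines limits what small differences can be told from line-to-line spread.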
